A study of Mus musculus with 8 samples.

Results

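Sctr and Rxfp1 encode the receptors for the peptide hormones secretin and relaxin, and they are described here across the neurons of the mouse stellate ganglion. They are 2 of the 19224 genes given by symbol in the deposited table, which holds 1303 neurons that the authors divided into 8 subtypes. Both genes were chosen by their measured levels, since each was far higher in the noradrenergic subtypes NA1a and NA1c than in NA1b. Their levels by subtype are therefore given as a description without a test, and tests were made within subtypes. There the choice does not by itself fix the outcome, but splits of NA1b are not independent of it.

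The samples are stellate ganglia of male C57BL6/J mice aged 8-10 weeks, in 1 group with no treatment contrast. In every mouse an adeno-associated virus encoding GFP had been injected into the heart and one encoding tdTomato into the front paws, so that a reporter transcript can mark a neuron projecting to either organ. Single cells were sequenced on the 10x Genomics platform, where 1 unique molecular identifier (UMI) stands for 1 captured transcript. Of the 8 mouse names in the metadata, 5 matched 1 sample each and are replicates 1 to 5, with 1002 neurons, 165 to 235 a mouse. They held 916296 to 1196621 UMIs a mouse, with a median of 2722 to 4854 UMIs per neuron. The other 3 names, with 301 neurons, matched no single sample and entered no comparison between mice; counts pooled over all neurons include them. The study lists the 5 matched mice in 1 batch and its other 3 mice in another, so the comparisons between mice rest on 1 batch. The protocol describes left and right ganglia of more than 1 animal combined for digestion, while each library is labelled as 1 mouse, so p-values measure only the spread between these libraries.

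The secretin receptor is a class B1 G protein-coupled receptor that couples mainly to the stimulatory G protein and raises cyclic AMP (cAMP). It is best known from the pancreas and bile duct, where it drives bicarbonate secretion. The relaxin receptor RXFP1 belongs to another receptor class, with a large leucine-rich extracellular domain, and also acts largely through cAMP; relaxin is known for remodelling connective tissue and dilating vessels. Sympathetic neurons of the stellate ganglion innervate the heart and forelimb and release noradrenaline, many of them together with neuropeptide Y (Npy) or galanin (Gal). On the mouse build GRCm38, Sctr (ENSMUSG00000026387) lies on the forward strand at chr1:120006894-120063536. Rxfp1 (ENSMUSG00000034009) lies on the reverse strand at chr3:79641611-79737880, and Gm26984, an intronic noncoding gene on the same strand, is the only other annotated gene that overlaps it. Gm26984 was not among the genes analysed, and no annotated gene overlaps Sctr.

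Some libraries share cell barcodes. A total of 21 barcodes occurred in 2 to 5 libraries, in 73 neurons, of which 55 were among the 175 NA2 neurons, 15 among the 62 Ach2 neurons and 3 among the 37 Glut neurons. No neuron of NA1a, NA1b, NA1c, NA3 or Ach1 had such a barcode. For NA2, unthinned receptor levels, the co-detection test and the splits are given with and without these neurons. Ach2 has its receptor levels and shares given both ways. Other values of NA2 and Ach2, and the figures, include them unless stated. In the matched mice they were 55 of 150 NA2 neurons (36.7%). The labels were checked against defining genes. Dbh and Th, enzymes of noradrenaline synthesis, had a UMI in 95.6% and 90.5% of NA1a neurons and in 90.4% and 80.3% of NA1c neurons. Chat, the acetylcholine-synthesizing enzyme, had a UMI in 32.3% of Ach2 neurons but in none of the 64 Ach1 neurons, so Ach1 is named here by its label alone.

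The study identifies NA1c in antibody staining by high Sctr with low Npy. In these RNA counts Sctr was highest in NA1c, intermediate in NA1a and lower elsewhere. In NA1c its mean level was 16.1, 21.6, 10.9, 18.6 and 13.3 UMIs per 10000 UMIs of a neuron in replicates 1 to 5. In NA1a the same mice gave 6.08, 6.61, 8.39, 10.5 and 7.06 UMIs per 10000. Every NA1c value was above every NA1a value, and NA1c was higher in 5 of 5 mice, by 1.30 to 3.27 times. After each neuron was thinned to 2000 UMIs it was again higher in 5 of 5 mice, 15.6 ± 4.65 against 7.55 ± 1.38 (SD, n = 5 mice for both), but the ranges overlapped. The means were 16.1 ± 4.21 UMIs per 10000 in NA1c and 7.74 ± 1.78 in NA1a (SD, n = 5 mice for both). In NA1b, Sctr averaged 0.750 ± 0.721 UMIs per 10000 (SD, n = 5 mice). Its NA1b values were 1.19 in replicate 1, 1.76 in replicate 2, 0.542 in replicate 4 and 0.251 in replicate 5. In replicate 3 no Sctr UMI was seen in 31 NA1b neurons, which allows a share of neurons with a UMI of up to 9.68%. The NA1b values did not overlap those of NA1a or NA1c.

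Before thinning, Sctr outside these 3 subtypes fell into a middle and a low tier. NA3 had 2.51, 3.61 and 4.36 UMIs per 10000 in replicates 2, 4 and 5, a mean of 3.49 ± 0.928 (SD, n = 3 mice), which did not overlap NA1a above it or NA2 below it. After thinning, NA3 (3.38 ± 0.995, SD, n = 3 mice) and NA2 (1.55 ± 1.07, SD, n = 4 mice) overlapped. Replicates 1 and 3, left out with 9 and 7 NA3 neurons, had 0.0878 and 2.86 before thinning. NA3 neurons also carried RNA of satellite glia, the cells that wrap ganglion neurons: the 10 markers, none at 0, summed to 191 to 349 UMIs per 10000 in NA3. The same sum was 6.56 to 8.69 in NA1a, 3.46 to 21.9 in NA1b, 7.86 to 25.1 in NA1c and 4.63 to 10.2 in NA2, and its part in the receptor levels was not tested. The immune, endothelial, Schwann, smooth muscle and fibroblast marker lists each summed to 3.61 or less in every mouse of NA1a, NA1b, NA1c and NA2. The 6 sympathetic neuron markers summed to 52.0 to 75.1 in these subtypes. In NA3, fibroblast markers summed to 11.8 to 32.7, Schwann markers to at least 10.7 and sympathetic neuron markers to 30.6 to 32.7. In Ach1, replicate 4 had sums of 119 for satellite glia, 38.9 for fibroblast, 10.1 for immune and 9.71 for Schwann markers. Schwann markers summed to 3.86 to 5.99 in Ach2. The part of these sums in the receptor levels was not tested either. NA2 averaged 0.988 ± 0.401 UMIs per 10000 of Sctr (SD, n = 5 mice), from 0.672 to 1.63. Without the shared barcodes, the 4 NA2 libraries that kept at least 10 neurons had 1.07, 1.31, 0.824 and 1.85 in replicates 1, 3, 4 and 5. Ach2 had 0.384 and 1.30 in replicates 1 and 4, which became 0.107 and 1.70 without the shared barcodes, and Ach1 had 2.01 in replicate 4, the only mouse with at least 10 of its neurons. Glut had no mouse with 10 neurons, and its 37 neurons held 11 UMIs of Sctr in 6 neurons and 5 of Rxfp1 in 4. NA2, Ach2 and NA1b, neighbours in this order, did not differ beyond their spread.

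Rxfp1 separated the same subtypes, but its values in NA1c and NA1a overlapped. In NA1c its mean level was 4.89, 7.10, 6.25, 7.71 and 5.73 UMIs per 10000 in replicates 1 to 5, and in NA1a 4.40, 6.47, 6.64, 6.30 and 5.58. The groups overlapped, and the difference of 0.459 ± 0.658 UMIs per 10000 within mice (SD, n = 5) was smaller than its spread. The means were 6.34 ± 1.11 in NA1c and 5.88 ± 0.921 in NA1a (SD, n = 5 mice for both). In NA1b, Rxfp1 had 0.872, 0.878, 0.459, 0.599 and 0.514 UMIs per 10000 in replicates 1 to 5, all below every NA1a and NA1c value. NA1a exceeded NA1b by 5.04 to 14.5 times and NA1c exceeded NA1b by 5.60 to 13.6 times, each in 5 of 5 mice.

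**Figure D1:**
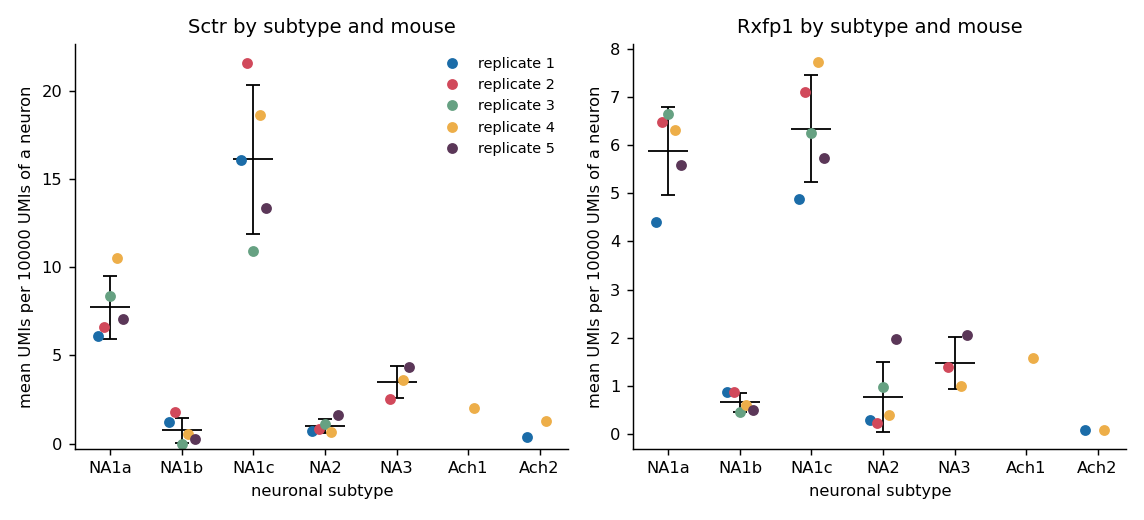
Mean level of Sctr (left) and Rxfp1 (right) in UMIs per 10000 UMIs of a neuron, by neuronal subtype, with 1 point per mouse for subtypes with at least 10 neurons in that mouse and black bars for the mean and SD where there are at least 3 mice. Sctr in NA1c (10.9 to 21.6) lies above NA1a (6.08 to 10.5), whereas Rxfp1 overlaps between NA1c (4.89 to 7.71) and NA1a (4.40 to 6.64).

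Rxfp1 was also low in the remaining subtypes. NA3 had 1.39, 0.993 and 2.06 UMIs per 10000 in replicates 2, 4 and 5. NA2 had 0.289, 0.245, 0.975, 0.392 and 1.97 in replicates 1 to 5, so that replicate 5 stood above the other mice, as it did for Sctr in NA2. Without the shared barcodes, NA2 had 0.217, 1.19, 0.582 and 2.23 in replicates 1, 3, 4 and 5. Ach2 had 0.0892 and 0.0999 in replicates 1 and 4 (0.116 and 0.131 without the shared barcodes), below every NA1b value. These levels rested on 2 of 13 and 1 of 17 neurons with a UMI. After thinning, Ach2 was at 0 in both mice and NA1b at 0 in replicate 5, so the ranges overlapped. Replicates 2, 3 and 5, left out with 5, 6 and 5 Ach2 neurons, had 0, 0 and 1.71 before thinning. Ach1 had 1.58 in replicate 4. NA3 and NA2 overlapped, as did NA2 and NA1b.

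Over all 1303 neurons, the table held 3635 UMIs of Sctr and 2125 of Rxfp1. NA1a held 45.9% and NA1c 40.2% of the Sctr UMIs, and NA1a held 54.4% and NA1c 28.4% of the Rxfp1 UMIs. The level varied widely between neurons of a subtype. The neuron with the most Sctr in NA1c had 61.3 UMIs per 10000, against a median of 15.5, and the most in NA1a was 40.6. NA1b was low in most neurons and high in a few: 42 of its 311 neurons had a UMI of Sctr, and 8 of them, from 4 mouse names, exceeded the NA1c median and held 39.6% of the Sctr UMIs of NA1b.

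Neurons of different subtypes differed in depth, from a median of 2206.5 UMIs in Ach1 to 6773 in NA3, so shares of neurons with a UMI were compared after each neuron was thinned to 2000 UMIs, which kept 1073 of 1303 neurons. Sctr was then detected in 84.4% ± 13.7 of NA1c neurons and 66.7% ± 12.8 of NA1a neurons (SD, n = 5 mice for both), higher in NA1c in 4 of 5 mice with overlapping ranges. Before thinning the shares were 88.1% in NA1c and 85.2% in NA1a. The median depth of a mouse averaged 3026 UMIs in NA1c and 8300 in NA1a over the same 5 mice. Rxfp1 was detected in 73.3% ± 6.53 of NA1c and 62.1% ± 13.4 of NA1a neurons after thinning (SD, n = 5 mice for both), again with overlap. Before thinning Rxfp1 was in 81.6% of NA1c and 92.3% of NA1a neurons, so its order reversed with depth.

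In NA1b the mean thinned share was 8.09% ± 6.35 for Sctr and 8.39% ± 5.25 for Rxfp1 (SD, n = 5 mice). No cell type known to lack these receptors is in the table, so Glut and Ach2 are given beside NA1b as other subtypes with low shares. Over all neurons of Glut, 2 of 29 thinned neurons had Sctr (6.90%, exact 95% interval 0.846% to 22.8%) and 0 of 29 had Rxfp1, which allows a share of up to 10.3%. In Ach2, 7 of 54 thinned neurons had Sctr (13.0%, 5.37% to 24.9%) and 1 of 54 had Rxfp1 (1.85%, 0.0469% to 9.89%). Without the shared barcodes, Ach2 had 5 of 45 and 1 of 45. Over all neurons of NA1b the shares were 10.5% for Sctr (6.96% to 15%) and 10.1% for Rxfp1 (6.63% to 14.5%), with no test against Glut or Ach2. The Sctr share of NA1b thus lay between those of Glut and Ach2, and its Rxfp1 share above those of both, with overlapping intervals. Whether the NA1b signal is background from free RNA was not tested. Before thinning, 8 NA1b neurons exceeded the NA1c median of Sctr. Intervals and limits cover counting error only.

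Neurons in which both receptors were detected were mostly NA1a and NA1c neurons. After thinning, 264 of 1073 neurons had a UMI of both, 46.6% of them in NA1a and 42.8% in NA1c. In NA1c 113 neurons had both, 42 Sctr only, 16 Rxfp1 only and 11 neither. In NA1a 123 neurons had both, 70 Sctr only, 49 Rxfp1 only and 66 neither. In NA1b only 9 of 248 neurons had both. Of the neurons with Sctr, 72.9% also had Rxfp1 in NA1c, 63.7% in NA1a and 34.6% in NA1b.

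**Figure D2:**
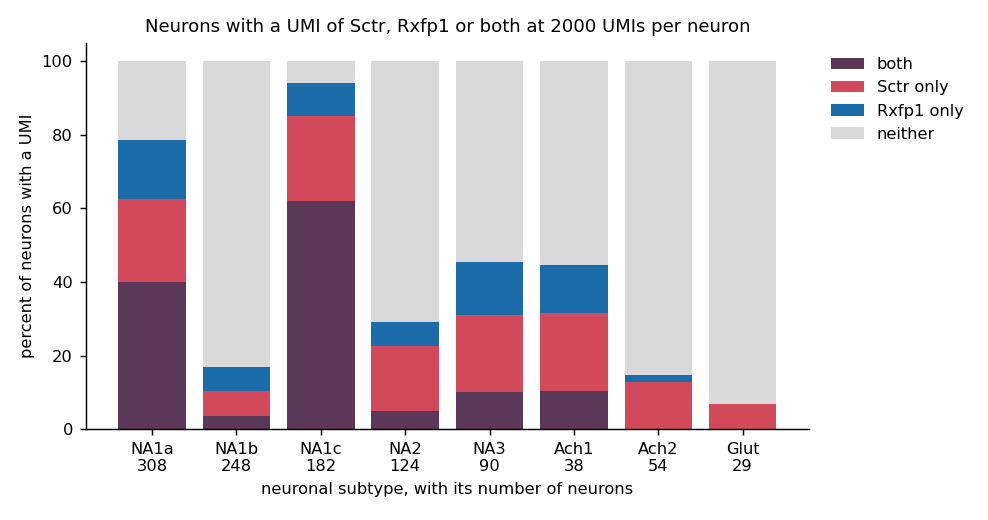
Percent of neurons of each subtype, all 8 mouse names pooled and each neuron thinned to 2000 UMIs, with a UMI of both receptors, of Sctr only, of Rxfp1 only or of neither; the number of neurons stands under each bar. Both receptors were detected together in 62.1% of NA1c and 39.9% of NA1a neurons, and in 10.5% or fewer of every other subtype.

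Within a subtype, the share with both was compared with the product of the 2 single shares in the same mouse, the value for detection of each without regard to the other. In NA1a the observed share was 30.8%, 44.0%, 50.0%, 57.5% and 27.3% in replicates 1 to 5, and the product was 26.3%, 42.6%, 42.9%, 57.4% and 37.2%. The mean excess was 0.640 ± 6.49 percentage points (SD, n = 5 mice; exact two-sided sign-flip permutation test p = 0.812, adjusted p = 0.812 over 4 subtypes). It was above 0 in 4 of 5 mice, and replicate 5, at -9.92, went the other way; without replicate 5 the mean excess was 3.28. In NA1c the observed share was 77.8%, 69.2%, 64.7%, 61.9% and 50.8% and the product 73.5%, 63.9%, 53.3%, 63.5% and 53.2%, a mean excess of 3.43 ± 5.63 points (SD, n = 5 mice; exact permutation p = 0.25, adjusted p = 0.5), above 0 in 3 of 5 mice. Leaving out 1 mouse moved the NA1c excess between 1.43, without replicate 3, and 4.87, without replicate 5.

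In NA1b the excess was 2.24 ± 2.74 points (SD, n = 5 mice; exact permutation p = 0.25, adjusted p = 0.5), on 6 neurons with both in all, and without replicate 4 it was 1.14. In NA2 it was 2.58 ± 4.77 points (SD, n = 4 mice; exact permutation p = 0.5, adjusted p = 0.667), and without the shared barcodes 3.18 ± 5.57 (SD, n = 3 mice). Without replicate 5, which had 4 of the 6 NA2 neurons with both, it was 0.319. With 5 mice this exact permutation test cannot go below p = 0.063, and with 4 not below 0.125, so none of the 4 subtypes could reach 0.05. Without thinning, the excess was 1.92 ± 1.68 points in NA1a and 3.36 ± 4.54 in NA1c (SD, n = 5 mice; exact permutation p = 0.125 and 0.188), each above 0 in 4 of 5 mice. As a description over the thinned neurons of a mouse, which share a library and a depth, Pearson's r between the logged levels of Sctr and Rxfp1 was 0.0731 to 0.341 in NA1c, above 0 in 5 of 5 mice with 17 to 61 neurons each. In NA1a it was -0.209 to 0.299, above 0 in 3 of 5 mice with 22 to 50 neurons each.

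**Figure D3:**
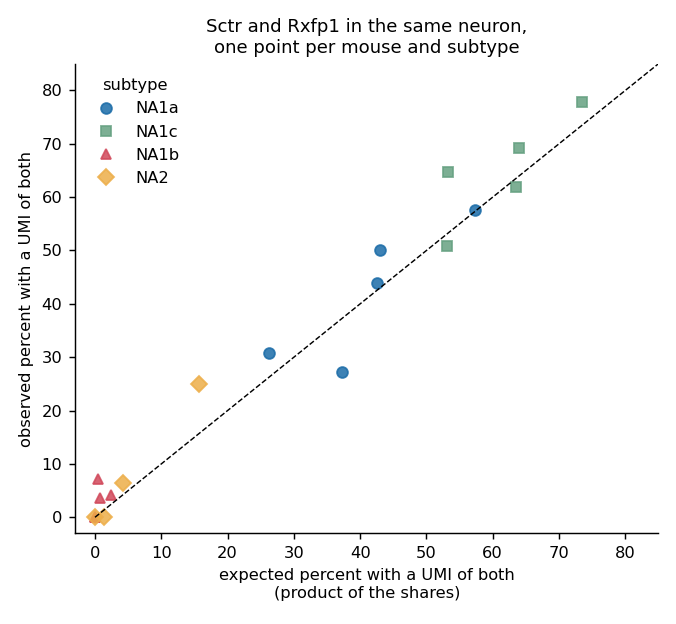
Observed percent of neurons with a UMI of both Sctr and Rxfp1 (vertical) against the product of the 2 shares (horizontal) in each mouse and subtype with at least 10 neurons thinned to 2000 UMIs; the dashed line marks equal values. The NA1a and NA1c points lie on both sides of the line, from 9.92 percentage points below it to 11.4 above it.

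The level of 1 receptor was next compared between neurons of a subtype with and without a UMI of the other, in thinned neurons. Such a split could be made for Sctr only in NA1a, and for Rxfp1 in NA1a and in 3 mice of NA1c; the other subtypes had too few neurons of a class. In NA1a, Rxfp1 was at 3.40, 7.50, 5.54, 5.29 and 5.83 UMIs per 10000 in the 122 neurons with Sctr. In the 54 neurons without, it was at 1.79, 6.36, 3.08, 5.83 and 8.50 in replicates 1 to 5, so that the classes overlapped and replicates 4 and 5 ran against the others. The difference on the log2 scale (pseudocount 0.1) was 0.26 ± 0.27 (SE; limma, adjusted p = 0.899), with a 95% interval of -0.27 to 0.79 and a higher value with Sctr in 3 of 5 mice. The reverse split gave a like picture. Sctr was at 8.75, 6.32, 10.0, 10.0 and 6.33 in the 106 NA1a neurons with Rxfp1 and at 5.00, 6.67, 5.24, 9.23 and 8.57 in the 70 without. It was higher with Rxfp1 in 3 of 5 mice, with a log2 difference of 0.26 ± 0.24 (SE; limma, adjusted p = 0.917) and a 95% interval of -0.21 to 0.74. The direction depended on how Rxfp1 neurons were defined: with at least 2 UMIs of Rxfp1 required, the log2 difference was -0.44 (limma, adjusted p = 0.911). Over all settings it lay between -0.44 and 0.61. The Rxfp1 difference by Sctr stayed positive, from 0.10 to 0.67; with neurons above the Sctr median of their mouse set against the others, Rxfp1 was at 6.49 ± 1.61 and 4.72 ± 2.03 (SD, n = 5 mice), higher in 5 of 5 mice (0.56 ± 0.29, SE; limma, adjusted p = 0.992).

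In NA1c, Sctr was at 23.1, 20.0 and 13.7 UMIs per 10000 in the 93 neurons with Rxfp1 and at 16.6, 17.1 and 11.4 in the 41 without, in replicates 2, 4 and 5. It was higher in 3 of 3 mice, with a log2 difference of 0.32 ± 0.31 (SE; limma, adjusted p = 1) and a 95% interval of -0.29 to 0.93. Without thinning it was at 18.9 ± 4.26 with Rxfp1 and 8.47 ± 3.67 without (SD, n = 3 mice; log2 difference 1.22 ± 0.67, SE; limma, adjusted p = 0.522), higher in 3 of 3 mice. Over the settings that could be fitted, the log2 difference lay between 0.15 and 1.22. Without replicate 2, 4 or 5 too few mice remained for this split, so the range does not cover their removal. The NA1c effect minus the NA1a effect was 0.06 ± 0.39 on the log2 scale (SE; limma, adjusted p = 0.997). Over all genes, limma called 0 of 3745 for the Sctr split in NA1a, 0 of 6798 for each of the Rxfp1 splits in NA1a and NA1c, and 0 of 6798 for their difference, a background of 0% in each; 214, 424, 257 and 267 genes had an unadjusted p below 0.05.

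**Figure D4:**
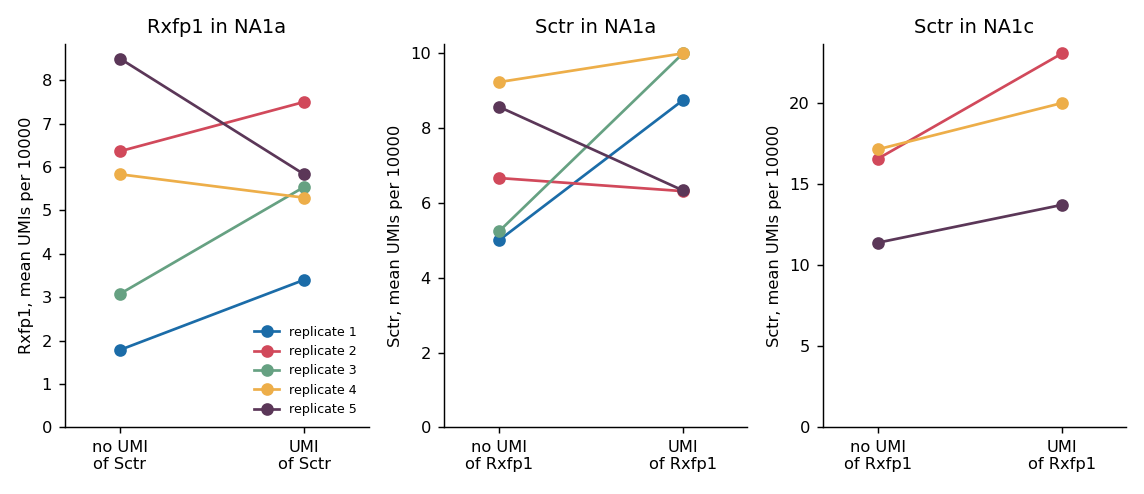
Mean level in UMIs per 10000 of Rxfp1 in NA1a neurons without and with a UMI of Sctr (left), and of Sctr in NA1a (middle) and NA1c (right) neurons without and with a UMI of Rxfp1, each neuron thinned to 2000 UMIs; a line joins the classes of 1 mouse. The lines run both ways in NA1a and upward in the 3 mice of NA1c.

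The neuropeptides galanin and neuropeptide Y, which the study lists among its subtype markers, were compared in the same splits. Gal was at 22.2, 14.6, 40.5, 28.4 and 16.7 UMIs per 10000 in thinned NA1a neurons with Sctr and at 21.4, 8.18, 25.8, 19.2 and 9.0 in those without, in replicates 1 to 5. It was higher with Sctr in 5 of 5 mice, by 0.60 ± 0.18 on the log2 scale (SE; limma), but did not pass the correction over all genes (adjusted p = 0.837). Npy was at 89.6, 108, 99.5, 87.2 and 73.8 with Sctr and 66.1, 76.4, 79.6, 64.2 and 68.0 without, also higher in 5 of 5 mice and also short of the threshold (0.36 ± 0.14, SE; limma, adjusted p = 0.837). In NA1c too few neurons lacked Sctr for this split, so, in a comparison added after the data were seen, neurons above the Sctr median of their mouse were set against the others. The 1 gene of 6324 called there (0.0158%) was Cntn5, a contactin adhesion molecule and another of the study's subtype markers. Cntn5 was at 0, 0.435, 0, 0 and 0.926 UMIs per 10000 in the upper class and at 1.5, 2.93, 2.50, 1.54 and 4.71 in the lower, in replicates 1 to 5. It was lower with high Sctr in 5 of 5 mice without overlap (-3.49 ± 0.67 on the log2 scale, SE; limma, adjusted p = 0.0112), a size that depends on the pseudocount since 3 libraries were at 0. In NA1a the same split gave 0.542 ± 0.543 and 3.15 ± 1.54 (SD, n = 5 mice), lower in 5 of 5 mice but not called (-2.90 ± 0.67, SE; limma, adjusted p = 0.315), with 0 of 6324 genes called (0%) and 273 at an unadjusted p below 0.05. Split by any UMI of Sctr, Cntn5 in NA1a was at 2.18 ± 1.06 with and 2.32 ± 1.08 without (SD, n = 5 mice; limma, adjusted p = 0.957), lower in 3 of 5 mice. For Gal, the NA1c level was 16.2, 10.7, 22.9, 14.4 and 14.3 in the upper class and 6.00, 6.38, 9.50, 7.31 and 9.85 in the lower. Every upper value exceeded every lower value, with a log2 difference of 0.98 ± 0.22 (SE; limma, adjusted p = 0.0679) that fell short of the threshold. The same split of NA1a gave 24.7 ± 13.6 and 20.1 ± 7.81 (SD, n = 5 mice), higher in 3 of 5 mice (limma, adjusted p = 0.992), and the NA1c effect minus the NA1a effect was 0.77 ± 0.31 on the log2 scale (SE; limma, adjusted p = 0.984).

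Without thinning, the same split called Gal and Npy in some subtypes. In NA1a, Gal was at 24.5 ± 11.0 UMIs per 10000 with Sctr and 9.54 ± 10.0 without (SD, n = 4 mice; limma, adjusted p = 2.36e-05), higher in 4 of 4 mice, and was 1 of 8 genes called among 4971 (0.161%). The class without Sctr held 22 neurons, 5 to 7 a mouse, against 118 with it. Npy, higher in 3 of 4 mice, was not called there (limma, adjusted p = 0.209), but was when the shared barcodes, none of them in NA1a, were left out of the fit (limma, adjusted p = 0.00156; 12 of 5476 genes called, 0.219%). The NA1a neurons with Sctr were also deeper, with a median of 7166 UMIs against 4800 over all neurons, and the part of depth was not tested apart from the thinned comparison above. In NA2, Gal was at 26.1 ± 6.26 with Sctr and 10.1 ± 4.04 without (SD, n = 4 mice; limma, adjusted p = 0.0104), and Npy at 71.6 ± 19.2 and 30.3 ± 14.5 (limma, adjusted p = 0.0104), each higher in 4 of 4 mice, with 10 of 4971 genes called (0.201%). The classes held 5, 12, 6 and 10 neurons with Sctr and 22, 37, 37 and 7 without, in replicates 1, 3, 4 and 5. Without the shared barcodes, 3 mice of NA2 remained, 13 of 5476 genes were called (0.237%), and both genes were called and higher in 3 of 3 mice (Gal 28.7 ± 8.37 against 9.21 ± 7.11, Npy 78.4 ± 24.4 against 24.3 ± 9.43, SD). The classes then held 5 to 25 neurons a mouse. With the unmatched names included, the median depth of NA2 neurons was 3324 UMIs with Sctr and 2364 without. It was 5808 and 2802.5 without the shared barcodes, and thinned NA2 neurons were too few for this split.

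Split by Rxfp1 in thinned neurons, neither Gal nor Npy was higher in most mice of NA1a. In NA1a, Gal was at 21.4 ± 12.3 with Rxfp1 and 24.1 ± 6.18 without, and Npy at 83.6 ± 8.48 and 89.1 ± 16.9 (SD, n = 5 mice), each higher with Rxfp1 in 2 of 5 mice (limma, adjusted p = 0.843 and 0.981). Whether the Sctr split and the Rxfp1 split differ in Gal was not tested. In NA1b, where thinned neurons were too few for a split, unthinned neurons with Rxfp1 had Npy at 20.3 ± 7.70 UMIs per 10000 and those without at 6.98 ± 3.51 (SD, n = 4 mice), higher in 4 of 4 mice. The class with Rxfp1 held 7, 16, 8 and 5 neurons in replicates 1, 2, 4 and 5. Npy was the only gene of 5659 called there (0.0177%, limma adjusted p = 0.000262). The median depth over all NA1b neurons, the unmatched names included, was 4462 UMIs with Rxfp1 and 3115 without. Other subtype markers of the study differed in size there without being called. Col5a3, a collagen gene, was at 22.8, 22.4, 21.1 and 15.6 with Rxfp1 and at 30.0, 44.5, 34.8 and 30.6 without, in replicates 1, 2, 4 and 5, lower in 4 of 4 mice without overlap (-0.77 ± 0.20, SE; limma, adjusted p = 0.66). Sctr was at 3.19 ± 2.86 with Rxfp1 and 0.410 ± 0.332 without (SD, n = 4 mice; 2.01 ± 0.58, SE; limma, adjusted p = 0.865), higher in 3 of 4 mice. Cntn5 was at 1.63 in the 15 NA1b neurons of the matched mice with both receptors and at 0.202 in the 181 with neither. Npy was at 35.1 and 7.34 in these neurons. In NA1c neurons with both, Cntn5 was at 1.73 and Npy at 45.6. These values are given without a test. The receptors were chosen as low in NA1b, and the subtypes were defined from the same expression. The NA1b differences are thus not independent of the choice, and whether such neurons belong to NA1b was not tested. With neurons of either receptor set against those of neither, a grouping chosen after its values were seen and not tested, Npy was at 15.8, 25.9, 16.9, 18.6 and 11.4 with either and at 6.40, 10.8, 5.71, 4.07 and 5.15 with neither in replicates 1 to 5. The classes did not overlap, and the median depth was higher with either receptor in replicates 2 and 4 only.

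The other genes of the 2 receptor families were sparse in these neurons. Of 9 further class B1 receptors measured, Vipr1, Glp1r, Glp2r and Crhr2, the receptors for VIP, GLP-1, GLP-2 and urocortins, had no UMI in any neuron. Vipr2, Gcgr, Calcrl and Pth1r had 2, 13, 7 and 33 UMIs. Only Adcyap1r1, the PACAP receptor, was common, with 843 UMIs in 516 neurons, and its level of 1.34 UMIs per 10000 in NA1a, 1.34 in NA1b and 1.67 in NA1c was not called different among them; it was called lower in NA2, at 0.404, than in NA1c. Of the relaxin family, Rxfp3, the receptor for relaxin-3, had no UMI. The ligands of the 2 receptors were scarce as well. Sct, which encodes secretin, had 4 UMIs in 4 of 1303 neurons, and Rln1, which encodes the relaxin that binds RXFP1, had none, which allows a share of neurons with a UMI of up to 0.230%. Of 14 ligand genes measured, Vip was the most abundant, and 88.1% of its UMIs were in Ach2.

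The cAMP pathway acts downstream of both receptors, and 2 of its 38 tested genes (5.26%) were called in each contrast between NA1 subtypes, beside 4.14% of all genes in NA1a against NA1b, 1.54% in NA1c against NA1b and 5.68% in NA1c against NA1a. The subtypes were defined from the expression of these same neurons, so calls between them are a description and not a test. Of 67 genes of the pathway other than the receptors, 65 were measured and 38 passed the filter on low levels. NA1a against NA1b, 0 were called higher and 2 lower, where 2.67% of 6185 genes were called higher and 1.47% lower, and their median log2 difference was -0.17 against 0.00 for all genes. NA1c against NA1b, 0 were called higher and 2 lower, with 1.07% and 0.469% of all genes, and a median of 0.04 against -0.01. NA1c against NA1a, 2 were called higher and 0 lower, with 1.75% and 3.93% of all genes, and a median of 0.13 against 0.01. NA2 against NA1c, 6 were called higher and 17 lower, with 23.4% and 36.5% of all genes, and a median of -0.54 against -0.29. These NA2 calls include the shared barcodes, without which 3221 of 6182 genes were called, against 3706 of 6185 with them.

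Among the G proteins, Gnas, which encodes the stimulatory subunit, was at 27.0 UMIs per 10000 in NA1c, 37.3 in NA1a and 49.3 in NA1b, and was called lower in NA1c than in NA1b by 0.86 ± 0.16 on the log2 scale (SE). Gnao1, an inhibitory subunit, was at 6.41 in NA1c and 3.67 in NA1a, a log2 difference of 0.73 ± 0.22 (SE). Adcy1, a calcium-stimulated adenylyl cyclase, was the gene of the pathway that differed most between NA1b and both other NA1 subtypes: 1.43 in NA1b, 0.197 in NA1a and 0.237 in NA1c, log2 differences of -2.38 ± 0.42 and -2.23 ± 0.42 (SE). None of the 5 phosphodiesterases tested, which degrade cAMP, and none of the 6 CREB family genes tested, which carry the signal to transcription, was called among the NA1 subtypes. Akap12, an anchor of protein kinase A, was at 1.16 in NA1a, 2.90 in NA1b and 2.09 in NA1c, called lower in NA1a than in NA1b (-1.21 ± 0.24, SE) and higher in NA1c than in NA1a (0.79 ± 0.24, SE). Ramp1, a partner of calcitonin-type receptors, was at 0.557 in NA1c, 1.51 in NA1a and 1.47 in NA1b and was called lower in NA1c than in either. Thinning to 2000 UMIs ended the calls of Adcy1, Gnao1 and Akap12 (limma, adjusted p = 0.164 to 0.257), and without replicate 4 Ramp1 was no longer called in NA1c against NA1b (limma, adjusted p = 0.0672). In NA1c against NA1a, Gnao1 was also lost without replicate 1, 2, 4 or 5 and Akap12 without replicate 1, 3, 4 or 5 (limma, adjusted p = 0.0692 to 0.227), and both were lost without the mouse as a block (limma, adjusted p = 0.0814 and 0.0546). The calls over all genes fell from 256 to 102 for NA1a against NA1b and from 351 to 129 for NA1c against NA1a without replicate 1. The first count was 159 without replicate 5 and the second 183 without replicate 4, and the calls for NA1c against NA1b fell from 95 to 61 without replicate 4.

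The genes whose levels followed Sctr and Rxfp1 most closely were ranked by Pearson's r over 26 profiles of mouse and subtype, among 7164 genes, as a description; the profiles share libraries and differ in depth. Both receptors were chosen for being higher in NA1a and NA1c than in NA1b, so their ranks for each other follow from that choice. For Sctr these were Col23a1, a transmembrane collagen (r = 0.88), Rxfp1 (r = 0.87), Slit2, a secreted axon guidance ligand (r = 0.87), Brinp2 (r = 0.85) and Pcdh7, a protocadherin (r = 0.83). For Rxfp1 they were Tenm2, a teneurin adhesion protein (r = 0.92), Cacna1e, an R-type calcium channel subunit (r = 0.91), Prom1, a membrane glycoprotein (r = 0.90), Pcdh9, another protocadherin (r = 0.90), and Col23a1 (r = 0.89), and Sctr was number 7. Pcdh7 was at 3.52 UMIs per 10000 in NA1a, 0.454 in NA1b and 3.00 in NA1c, and Tenm2 at 1.86, 0.484 and 1.75. The ranks held for some genes only: in thinned neurons Rxfp1 was number 4 for Sctr (r = 0.79), Sctr number 3 for Rxfp1 and Tenm2 still number 1 (r = 0.82), while Prom1 was number 115 and Col23a1 number 94 for Rxfp1. Without the shared barcodes Rxfp1 was number 1 for Sctr (r = 0.86) and Sctr number 6 for Rxfp1.

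**Figure D5:**
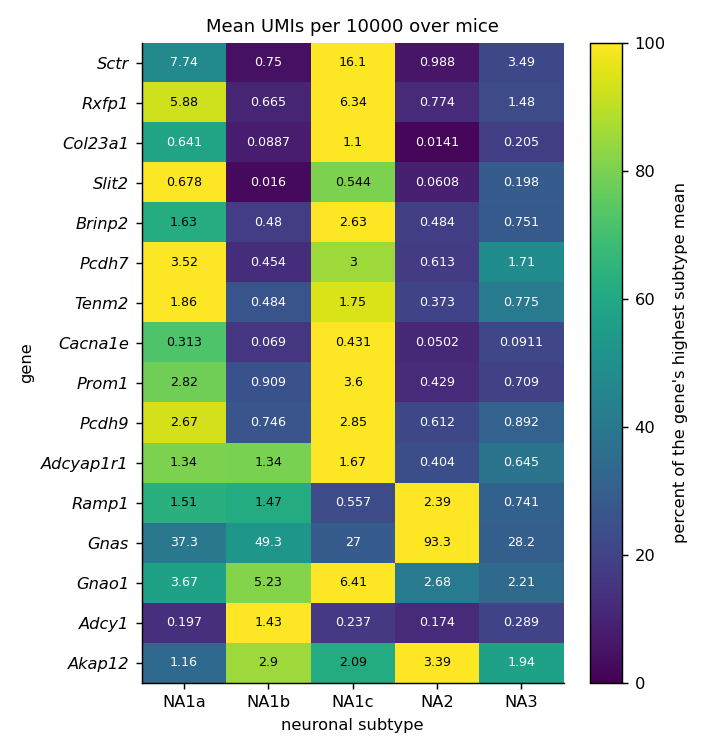
Mean level in UMIs per 10000 over mice (numbers in the cells) of Sctr, Rxfp1, the genes ranked most like them, and genes of the receptor families and cAMP pathway, in the 5 noradrenergic subtypes; colour gives the percent of the gene's highest subtype mean. The upper 10 genes, chosen or ranked for this pattern, are highest in NA1a or NA1c and low in NA1b and NA2. Adcyap1r1, Ramp1, Gnas, Gnao1, Adcy1 and Akap12 do not share it.

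Few neurons carried a reporter transcript. Of 6 neurons with a UMI of GFP, 3 had both receptors: both NA1a neurons and the NA3 neuron, while the 3 NA1b neurons, with a median of 1429 UMIs, had neither. Of 20 neurons with a UMI of tdTomato, 11 were NA1b, of which 1 had Sctr and 0 had Rxfp1. Of the other 9 neurons with tdTomato, which were NA1a, NA1c and NA3, 3 had Sctr and 6 had Rxfp1. These counts are too small to compare the projections.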

How the data were processed

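Transcripts of single neurons from 8 libraries of dissociated stellate ganglia were counted and clustered by the authors, and the submitters' processing notes name Cell Ranger 2.1.1, Seurat, Scanpy and the build mm10. The deposited table holds, per neuron and gene, the natural log of 1 plus UMIs per 10000 UMIs of that neuron, a scaling made by the authors. Whole UMIs were recovered from it: 100% of the nonzero values came within 0.01 of a whole number, and 88.0% of all values were 0. Subtypes and mouse names came from the deposited metadata. The authors state no removal of doublets, and none was made here.

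Sctr and Rxfp1 were selected by their measured levels, and the gene lists, tests and settings were chosen with earlier results of these data known. Levels are means over the neurons of a mouse and subtype with at least 10 neurons. For shares and splits, each neuron was thinned at random to 2000 UMIs and shallower neurons were left out. Splits needed at least 5 neurons per class and 3 mice per subtype. Differences across genes were fitted with limma 3.58.1 in R 4.3.3 on log2 of mean UMIs per 10000 plus 0.1, for genes averaging at least 0.5, with the mouse as a block and p-values adjusted by Benjamini-Hochberg (call: adjusted p below 0.05). Co-detection was tested by an exact two-sided sign-flip permutation over mice. Scripts used Python 3.11.15 with pandas 2.3.3, NumPy 2.4.6, SciPy 1.17.1 and matplotlib 3.10.9, and the fits were tested on simulated data. The mouse was kept as a block because profiles of 1 mouse come from 1 library: their deviations had a mean correlation of 0.0712 over 42 pairs, against -0.0180 over 168 pairs of different mice. Genes named in the text are the 2 receptors, the fixed lists, the 5 genes most like each receptor, genes called in a split, and Npy and the other subtype markers of the study; of genes called in a split, only Gal, Npy and Cntn5 are named. Alternatives were another pseudocount, no filter on low levels, no thinning, thinning to 1000 UMIs, other class limits, no block, and each mouse or the shared barcodes left out.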

Additional observations from a re-analysis of the deposited data

Results flagged for a closer look

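Neurons whose mouse name matched no single sample entered no comparison between mice, and a signal of both receptors appeared in them. Sctr had a UMI in 142 of these 301 neurons (47.2%) and Rxfp1 in 136 (45.2%), where a count of 0 would allow up to 0.997%. Over all 1303 neurons, these included, the shares were 49.2% for Sctr and 47.0% for Rxfp1. No mouse stood apart by Dixon's criterion in the 16 groups of mice examined.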

How the results depend on the processing

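Of 352 values recomputed under another setting, 304 were counted as unchanged. This count includes values that could not change. Leaving out the shared barcodes alters no level of NA1a, NA1b, NA1c or NA3. Leaving out replicate 1 or 3 alters no NA3 level and removes no mouse from the NA1c split by Rxfp1. Levels had to stay within the spread between mice, and tested differences had to keep their direction and their side of the threshold. For the 84 counts of genes called, 69 of them unchanged, only the ratio to the main count was limited. The 36 co-detection values could not cross the threshold at these numbers of mice, so only their direction could change. Back-transformed means of the logged values lowered Sctr to 5.41 UMIs per 10000 in NA1a and 10.8 in NA1c and Rxfp1 to 4.69 and 4.34, so that Rxfp1 in NA1c minus NA1a turned to -0.347; thinning raised that difference to 1.26. A log mean gives less weight to high neurons by its construction. With pseudocount 1 the genes called rose to 421 (NA1a against NA1b) and 148 (NA1c against NA1b), thinning lowered them to 83 and 51, and to 119 for NA1c against NA1a, which had 225 with no filter; the cause was not tested. Leaving out 1 mouse gave 102 to 207, 61 to 136 and 129 to 251 calls for these comparisons, and 3350 to 3621 for NA2 against NA1c. Without the mouse as a block, the paired design, the calls were 180, 78, 270 and 3630 in the same order.

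Sctr in NA1a split by Rxfp1 turned to -0.44 on the log2 scale with at least 2 UMIs required and to -0.19 above the median, a setting chosen after seeing the data, within a range up to 0.61; Sctr in NA1c by Rxfp1 ranged from 0.15 to 1.22 and Rxfp1 in NA1a by Sctr from 0.10 to 0.67. The excess of co-detection in NA1a ranged from -0.970 to 3.28 percentage points when 1 mouse was left out, below 0 without replicate 1 (-0.318) or replicate 3. Without thinning, the Sctr split of NA1a called 8 genes, or 12 with the shared barcodes left out as well, and with no filter the Rxfp1 splits called 3 genes in NA1a and 1 in NA1c. Every split rested on 5 or fewer mice, and the thinned ones on the deeper neurons only, which limits their precision.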

Other observations

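The 3 mouse names that matched no single sample, Mouse-3, Mouse-6 and Mouse-7, had 60, 70 and 171 neurons. Their NA1a neurons had Sctr at 6.83, 7.55 and 7.38 UMIs per 10000, inside the range of the 5 matched mice, and Rxfp1 at 4.85, 2.52 and 3.99, of which the last 2 lie below it. Their NA1c neurons, 7, 4 and 12 in number, had Sctr at 24.1, 26.4 and 23.3, above every matched mouse, and Rxfp1 at 4.94, 8.42 and 5.28. In Mouse-7, 26 of 96 NA1a neurons (27.1%) had a UMI of neither receptor, against 5 NA1a neurons (2.75%) in the matched mice together. Npy was at 17.6 UMIs per 10000 in those 26 neurons, with a median depth of 4396 UMIs, and at 49.3 in the 57 with both receptors, with 5213. These values belong to 1 mouse name and were singled out after they were seen. The study lists the 5 matched mice in 1 batch and its other 3 mice in another. If the unmatched names are those 3 mice, their differences from the matched mice cannot be told apart from batch.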
